A study of Pongo abelii with 8 samples.

Results

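Metallothioneins are small, cysteine-rich proteins of the cytosol that bind zinc and copper in clusters of thiolate bonds and also take up toxic metals such as cadmium. Their genes lie side by side in a main cluster and are switched on by zinc through the transcription factor MTF1, by glucocorticoids and by oxidative stress. MT2A and the MT1 genes are active in many tissues, MT3 is known mainly from the brain, and MT4 from stratified epithelium. In cultured skin fibroblasts they are known as genes that respond readily to serum, metals and steroids.

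The genes described here are MT1E, MT1F, MT1G, MT1H, MT1M, MT1X, MT2A and MT3. Every probe set whose platform annotation names 1 of these 8 symbols was taken, which gave 12 of the 22277 probe sets on the array, and none of the 12 carried a second symbol. MT1E, MT1F, MT1G and MT1X had a pair of probe sets each and the other 4 genes had 1 each. The ID of 9 of these probe sets ends in _x_at, the manufacturer's mark for probes that can also pair with other transcripts, and paralogs of this family differ at few bases. A value of such a probe set is therefore the signal of a group of paralogs under the name of 1 gene, and near-identical copies are uncertain to separate. The other 3 probe sets, for MT1G, MT1M and MT3, lack this mark.

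RNA of 8 cultures from a pair of Sumatran orangutans was measured on one-colour arrays designed for human transcripts. The first group holds 6 colonies of induced pluripotent stem cells (iPSCs), 3 from KB10973, a 29 year old male, and 3 from KB10460, a 43 year old female. All iPSCs were made from skin fibroblasts with retroviruses for human c-MYC, KLF4, SOX2 and OCT4, and their colonies were picked by hand and expanded on mouse feeder cells. The second group holds 1 untransduced dermal fibroblast culture from each of the same animals, both labelled as healthy controls. Colonies of 1 donor are not separate animals, so p-values describe the spread between cultures of 2 orangutans. The growth protocol gives the fibroblasts a medium with fetal bovine serum and the iPSCs one with a serum replacement, whereas the description of the series gives both cell types the serum replacement. Where the media differed, medium and cell type cannot be told apart, which bears on every metallothionein value below.

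The values are log2 expression values from RMA, a method that subtracts background, equalizes the distributions of the arrays and condenses the probes of a probe set to 1 number. The median of an array was between 3.74 and 3.82. Of 7 listed pluripotency markers, 5 had a probe set with a single symbol, namely SOX2, NANOG, LIN28A, DNMT3B and L1TD1, and all 5 rose in the iPSCs. POU5F1, the gene of OCT4, and TDGF1 had no such probe set and were left out. Of 7 fibroblast markers 6 were lower and THY1 was higher. One of these 6, COL1A1, was not called when the KB10973 fibroblasts were left out (-0.74, adjusted p = 0.19 from limma, against -2.34 without the KB10460 ones) or with colonies averaged within donor (adjusted p = 0.20). The fibroblast proteoglycan gene DCN was at 3.75 to 3.82 in the 6 colonies, close to the array medians, against 12.4 and 12.5 in the fibroblasts. No keratinocyte (0 of 2) or melanocyte (0 of 3) marker was called, while 1 of 3 endothelial markers (PECAM1) and 1 of 2 leukocyte markers (CD14) were lower in the iPSCs. CD14 differed by -3.33, by -2.05 when the KB10460 fibroblasts were left out, and was not called with colonies averaged within donor (adjusted p = 0.088 from limma). Of 5 markers of early differentiation AFP, NES and GATA6 were higher in the iPSCs, the last of these not without the KB10460 fibroblasts (adjusted p = 0.052 from limma). In RNA from whole cultures, fewer cells of a type and less RNA per cell cannot be told apart.

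Metallothionein signal was lower in every iPSC colony than in both fibroblast cultures at 9 of the 12 probe sets. Of the 12 probe sets, 9 were lower in the iPSCs, none was higher and 3 were not called, where a call is a change over 1.5-fold with a limma p under 0.05 after Benjamini-Hochberg adjustment. Over all probe sets 9.6% were called lower and 21.8% were called either way. All 6 iPSC arrays lay below both fibroblast arrays for the same 9 probe sets, a pattern found in 18.2% of all probe sets. The median log2 difference of the 12 was -4.07, against -0.01 over all probe sets. The 9 called probe sets are those with the _x_at mark, they stand for 6 of the 8 genes, and since they share targets they are not 9 independent observations.

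**Figure D1:**
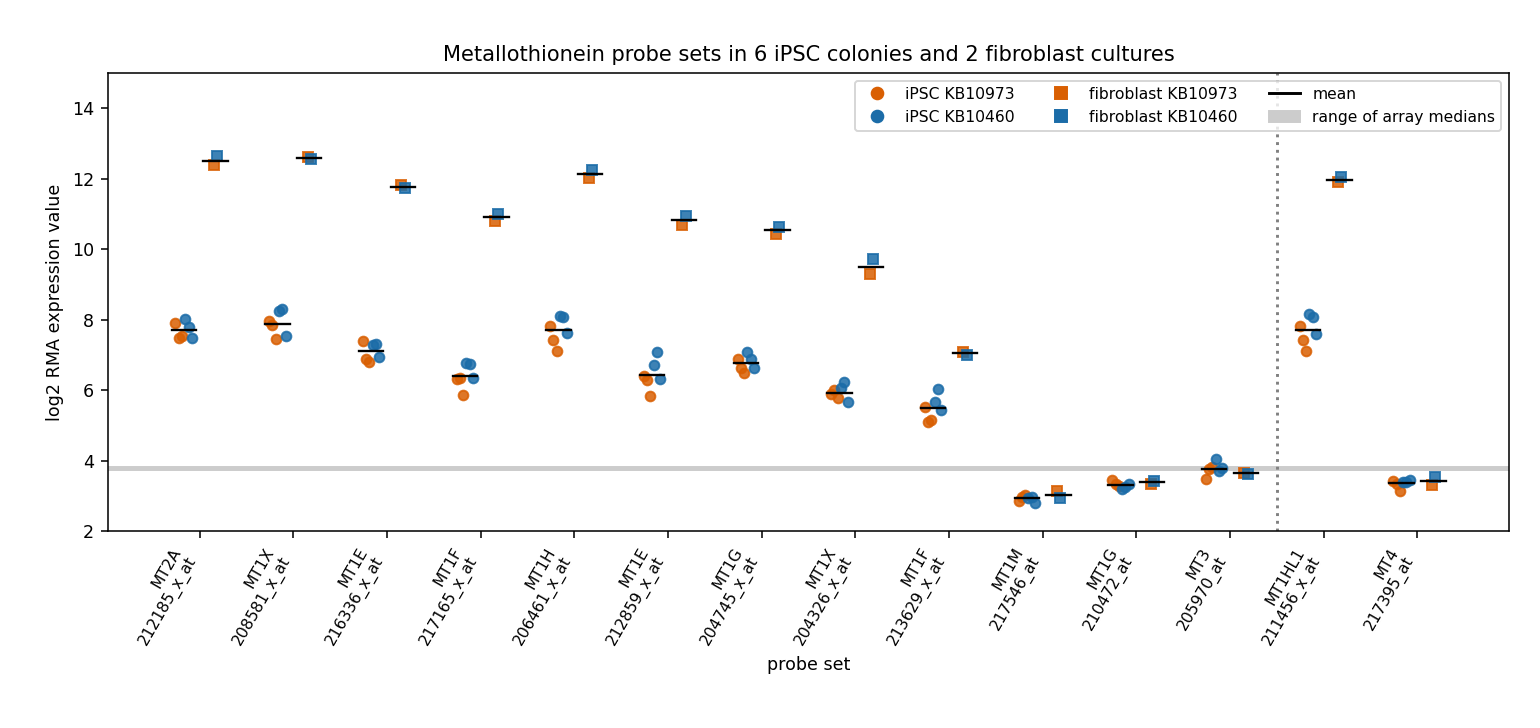
Log2 RMA expression values (vertical axis) of the 12 metallothionein probe sets and, right of the dotted line, of MT1HL1 and MT4, with 1 circle for each iPSC colony and 1 square for each fibroblast culture, coloured by donor, black bars for group means and a grey band for the range of array medians (3.74 to 3.82). The circles of the 9 called probe sets lie between 5.11 and 8.30 and their squares between 6.999 and 12.6. MT3 stays near the band, while MT1M, MT4 and 1 MT1G probe set lie below it in all arrays.

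MT2A, the member that is usually most abundant in human cells, showed the largest difference of the 12. Its probe set 212185_x_at ranged from 7.47 to 8.01 in the iPSC colonies with a median of 7.67, against 12.4 in the KB10973 fibroblasts and 12.6 in the KB10460 fibroblasts. The groups did not overlap, and the distance between them was many times the spread within either. MT2A averaged 7.70 ± 0.24 over the iPSC colonies (SD, n = 6), against 12.51 ± 0.18 over both fibroblast arrays (SD, n = 2), a log2 difference of -4.81 (standard error 0.17, 95% confidence interval -5.19 to -4.43, adjusted p = 7.1e-08 from limma), or a signal 28.0-fold lower. This was the 102nd largest fall of the 22277 probe sets.

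MT1X encodes one of the more widely expressed MT1 proteins and has a pair of probe sets with the mark. Probe set 208581_x_at ranged from 7.46 to 8.30 in the iPSCs with a median of 7.90, against 12.61 and 12.55 in the KB10973 and KB10460 fibroblasts. Its log2 difference was -4.68 (standard error 0.22, adjusted p = 6.0e-07 from limma), a fold of 25.7. Probe set 204326_x_at ranged from 5.66 to 6.23 with a median of 5.94, against 9.29 and 9.71 in the fibroblasts, and fell by 3.57 on the log2 scale (standard error 0.16). Both probe sets put all iPSCs below the fibroblasts. The annotation pairs the symbol of the second one with a non-coding RNA record, so MT1X is an uncertain name for it.

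MT1E was likewise lower at both of its probe sets. Probe set 216336_x_at ranged from 6.81 to 7.39 in the iPSCs with a median of 7.13, against 11.83 and 11.72 in the KB10973 and KB10460 fibroblasts, a log2 difference of -4.67 (standard error 0.17, adjusted p = 9.1e-08 from limma). Probe set 212859_x_at ranged from 5.84 to 7.10 with a median of 6.36, against 10.70 and 10.93, a difference of -4.37 (standard error 0.27). This second probe set had the largest SD over the colonies among the 9 (0.43), which is still small beside the distance to the fibroblasts.

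MT1H, an MT1 gene best known from liver and kidney, was at 7.12 to 8.11 in the iPSCs (median 7.72) and at 12.03 and 12.26 in the KB10973 and KB10460 fibroblasts. Its log2 difference was -4.44 (standard error 0.25, adjusted p = 1.7e-06 from limma). MT1HL1, an MT1H-like gene outside the main cluster and not among the 8 genes, was at 7.10 to 8.18 in the iPSCs and at 11.91 and 12.04 in the fibroblasts, a difference of -4.27 (standard error 0.26). Over the 6 colonies the probe sets of MT1H and MT1HL1 had a Pearson r of 0.998. This is a description of a pair of _x_at probe sets on the same arrays and does not show that both genes were expressed.

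The probe sets of MT1F and of MT1G disagreed with one another in size. MT1F probe set 217165_x_at ranged from 5.86 to 6.77 in the iPSCs with a median of 6.35, against 10.81 and 11.01 in the KB10973 and KB10460 fibroblasts, a log2 difference of -4.51 (95% confidence interval -5.01 to -4.02). MT1F probe set 213629_x_at was at 5.11 to 6.04 in the iPSCs (median 5.48) and at 7.09 and 6.999 in the fibroblasts, a difference of -1.55 (95% confidence interval -2.05 to -1.05, adjusted p = 5.8e-04 from limma) or 2.94-fold. Both were called lower and the intervals do not overlap, so for MT1F the direction was shared and the size was not.

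MT1G probe set 204745_x_at was at 6.49 to 7.10 in the iPSCs (median 6.76) and at 10.43 and 10.64 in the KB10973 and KB10460 fibroblasts, a log2 difference of -3.76 (standard error 0.16, adjusted p = 2.3e-07 from limma). MT1G probe set 210472_at, without the mark, was at 3.21 to 3.47 in the iPSCs and at 3.35 and 3.43 in the fibroblasts. It was not called (log2 difference -0.08, 95% confidence interval -0.27 to 0.11). For MT1G the call therefore depends on the probe set. The one not called lay below the array medians of 3.74 to 3.82 in every array, where a fall could hardly show.

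MT1M and MT3 were not called. MT1M, an MT1 gene known from liver, ranged from 2.80 to 3.03 in the iPSCs (median 2.96) and was at 3.14 and 2.94 in the KB10973 and KB10460 fibroblasts, a difference of -0.10 (95% confidence interval -0.31 to 0.10). MT3, also called growth inhibitory factor and known from neurons and astrocytes, ranged from 3.48 to 4.07 in the iPSCs (median 3.78) and was at 3.66 and 3.64 in the fibroblasts, a difference of 0.13 (95% confidence interval -0.17 to 0.43). The groups overlapped in both genes. MT4 of stratified epithelium, which is not among the 8 genes, had a difference of -0.06 (95% confidence interval -0.30 to 0.17). A filter that keeps probe sets with a mean log2 value of at least 4 retains 9 of the 12 and drops these MT1M and MT3 probe sets and MT1G 210472_at. Mismatches between the human probes and the orangutan transcripts were not counted for these probe sets, so a low value does not show that a transcript was absent.

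**Figure D2:**
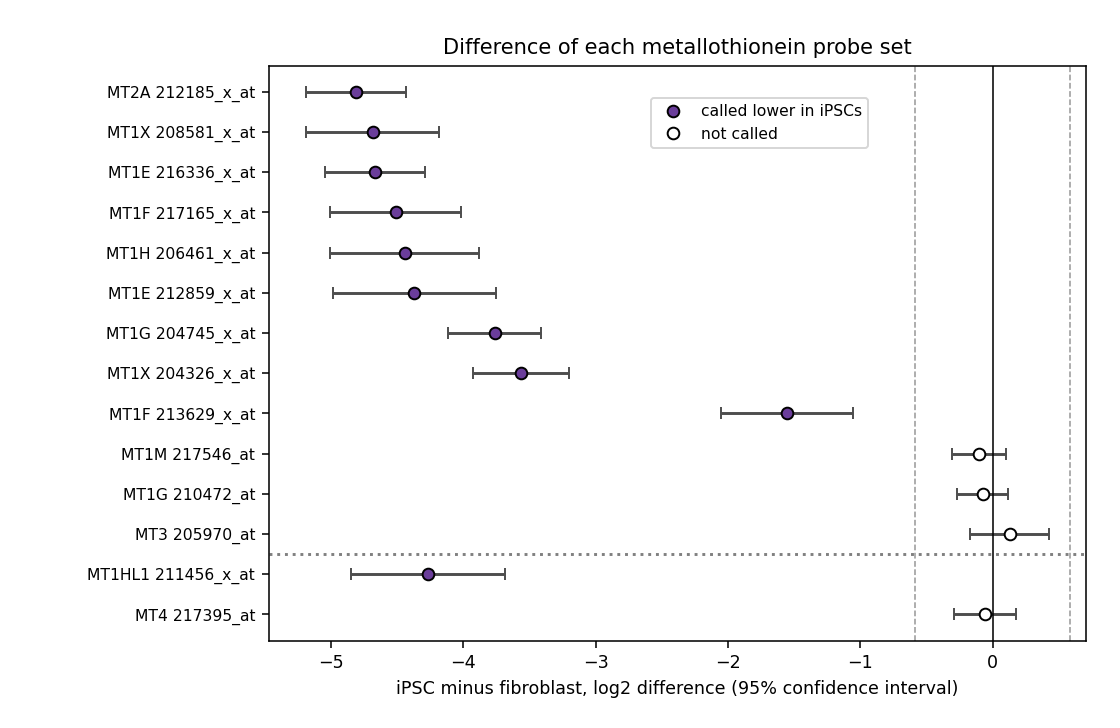
Log2 difference of iPSCs minus fibroblasts (horizontal axis) with its 95% confidence interval from limma for each of the 12 metallothionein probe sets and, below the dotted line, MT1HL1 and MT4, where dashed lines mark a 1.5-fold change. Of the called members, 8 lie between -4.81 and -3.57 and MT1F 213629_x_at at -1.55, while the intervals of MT1M, MT1G 210472_at and MT3 span 0.

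The RefSeq gene table of the orangutan assembly NHGRI_mPonAbe1-v2.0, used for names only, gives a symbol to only 2 of the 8 genes, MT2A and MT3. Between MT2A and NUP93, the next named gene on that side, it holds 10 protein-coding genes and 3 pseudogenes without a symbol. Which of these the human MT1 probe sets read was not tested, and MT1 symbols here are those of the human array design. MT2A and every marked MT1 probe set shared the direction of the difference.

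Within each animal the colonies lay far below their own fibroblasts. For the 9 called probe sets the mean of the 3 colonies minus the donor's fibroblast array was between -4.85 and -1.82 in KB10973 and between -4.87 and -1.28 in KB10460. MT2A, for example, differed by -4.74 in KB10973 and by -4.87 in KB10460. The difference of the change between donors, KB10973 minus KB10460, was between -0.54 and 0.33 for these probe sets, with standard errors of 0.29 to 0.44. None of the 12 was called in limma (lowest adjusted p = 0.55), 0 had an unadjusted p under 0.05, and over all probe sets 2.91% were called and 15.2% had such a p. Each donor has 1 fibroblast array, so this comparison borrows its spread from the colonies.

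The iPSC colonies were not uniform in their metallothionein signal. The SD over the 6 colonies was between 0.20 and 0.43 for the 9 probe sets, against a median of 0.13 over all probe sets. The 9 lay at 5.11 to 8.30 in the iPSCs, above the array medians of 3.74 to 3.82. No SD of probe sets at a like level was taken, so this does not set the 9 apart from other expressed genes. After each probe set was set to its own mean over the colonies, the 9 averaged 0.07, -0.16 and -0.38 in KB10973 colonies 1, 2 and 3, and 0.28, 0.34 and -0.16 in KB10460 colonies 1, 2 and 3. KB10460 colonies 1 and 2 were above the mean in all 9, and KB10973 colony 3 and KB10460 colony 3 were below it in all 9. KB10973 colony 3 was the lowest colony in 6 of the 9. The 36 pairs of these probe sets had a median Pearson r of 0.81 over the 6 colonies (range 0.54 to 0.95), a description of probe sets that share arrays and targets.

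**Figure D3:**
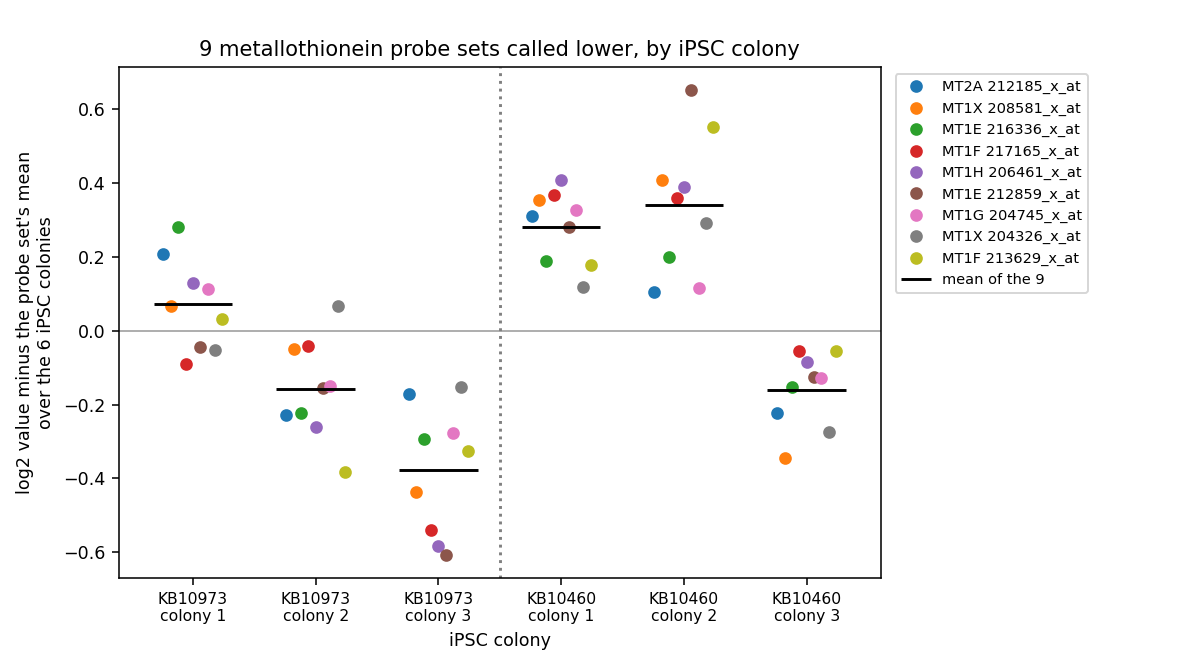
Deviation of each of the 9 called metallothionein probe sets from its mean over the 6 iPSC colonies (vertical axis, log2 units) by colony (horizontal axis), with 1 coloured point for each probe set and a black bar for the mean of the 9. KB10460 colonies 1 and 2 have bars at 0.28 and 0.34, and KB10973 colony 3 has the lowest at -0.38.

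The difference between the donors' colonies was small and was not called. All 9 marked probe sets had a lower mean in the KB10973 colonies, by 0.09 to 0.54 on the log2 scale. The largest was that of MT1E 212859_x_at, which was at 6.40, 6.29 and 5.84 in KB10973 colonies 1, 2 and 3 and at 6.73, 7.10 and 6.32 in those of KB10460. The donors overlapped here, as they did for all 12 probe sets, and the share over all probe sets was not taken. The log2 difference of MT1E 212859_x_at was -0.54 (95% confidence interval -1.04 to -0.03, unadjusted p = 0.040 and adjusted p = 0.46 from limma). For MT2A the difference was -0.13 (95% confidence interval -0.51 to 0.26). An unadjusted p under 0.05 with the KB10973 colonies lower was found for 4 of the 12, which share targets, and for 4.98% of all probe sets. After adjustment 0 of the 12 were called by limma, with the lowest adjusted p at 0.43, and 0.0898% of all probe sets were.

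Some markers of other cells also varied among the colonies, and their part in the metallothionein values was not tested. The SD over the 6 colonies was 0.55 for COL1A2 and 1.38 for GATA6. It was 0.03 for DCN and 0.09 for PAX6, both at low values in the iPSCs (means of 3.78 and 3.47). The collagen gene COL1A2 was at 7.78, 7.53 and 8.26 in KB10973 colonies 1, 2 and 3 and at 6.65, 7.91 and 7.33 in KB10460 colonies 1, 2 and 3. GATA6, a transcription factor of primitive endoderm, was at 7.33, 6.05 and 8.28 in the KB10973 colonies and at 5.88, 8.86 and 9.03 in the KB10460 colonies. The colonies with the highest metallothionein signal, KB10460 colonies 1 and 2, held the lowest and the second highest GATA6 value, a description of 1 marker. The summed level of the 7 fibroblast markers, as the log2 of their summed linear values, was 9.66 to 10.58 in the iPSC arrays and 14.2 to 14.5 in the fibroblast arrays. VIM had the highest iPSC mean of the 7 (9.36), and THY1 was higher in the iPSCs by 2.79. The sum is therefore not a measure of fibroblast cells among the colonies.

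The genes whose signal over the colonies was most like the metallothioneins are given as a description. Against the mean profile of the 7 probe sets with a mean of at least 6 in the iPSCs, among 1673 probe sets with an SD of at least 0.3, the highest Pearson r over the 6 colonies were those of PAPOLG (0.939), PSMD11 (0.919), FKBP4 (0.919), FGF4 (0.909) and THBS4 (0.906). PAPOLG encodes a poly(A) polymerase, PSMD11 a proteasome subunit, FKBP4 a cochaperone of steroid receptors, FGF4 a growth factor of pluripotent cells and THBS4 a matrix protein. FKBP4 was at 6.85, 6.88 and 6.61 in KB10973 colonies 1, 2 and 3 and at 7.46, 7.30 and 6.73 in the KB10460 colonies. All 5 were higher in the iPSCs than in the fibroblasts, with FKBP4 at a log2 difference of 2.43 and FGF4 at 2.54. Of the 1673 candidates, which had to vary over the iPSC colonies, 31.3% were called higher and 16.5% lower, so nothing is read from this direction. The PAPOLG call was lost when the KB10460 (adjusted p = 0.062 from limma) or KB10973 fibroblasts (0.21) or KB10973 colony 1 or 2 (0.052 and 0.055) were left out, and with colonies averaged within donor (0.079). The PSMD11 call was lost when the KB10460 fibroblasts were left out (adjusted p = 0.12). With 6 arrays, an r of this size is a description only.

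The regulators of metallothionein genes differed in direction. MTF1, the zinc-sensing activator, was at 4.12 to 4.49 in the iPSCs and at 4.59 and 4.83 in the KB10973 and KB10460 fibroblasts, a log2 difference of -0.44 (standard error 0.11, adjusted p = 0.013 from limma), which is under the 1.5-fold threshold and so was not called. The glucocorticoid receptor gene NR3C1 fell to 4.54 to 4.94 in the iPSCs, against 7.96 and 8.28 in the fibroblasts, a difference of -3.35 (standard error 0.13, adjusted p = 1.7e-07). NFE2L2, which encodes the oxidative stress factor NRF2, differed by -1.61, and its partner gene MAFG by -0.92. CTCF, an insulator protein, was higher in the iPSCs by 1.92. Of 11 measured genes of this list 3 were lower, 1 was higher and 7 were not called, where 11.5% of all 11963 genes were lower and 15.2% were higher. MAFG was not called when the KB10460 fibroblasts were left out (-0.44, adjusted p = 0.37), and its difference was -1.39 with the KB10973 ones left out. Its call also ended without KB10460 colony 1, KB10973 colony 1 or KB10973 colony 3 (adjusted p = 0.054, 0.064 and 0.058), and with colonies averaged within donor, which leaves 1 value for each animal and cell type (adjusted p = 0.21).

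Known targets of the glucocorticoid receptor were lower in 5 of 9 measured genes, higher in 1 and not called in 3, where 11.5% of all genes were lower and 15.2% higher. Their median log2 difference was -1.52, against 0.00 over all genes. KLF9, a transcription factor, averaged 3.56 ± 0.15 over the iPSC colonies (SD, n = 6), against 8.15 ± 0.45 over both fibroblast arrays (SD, n = 2). CEBPD, a transcription factor of the acute phase, differed by -3.95, the kinase gene SGK1 by -3.60 and the NF-kappa-B inhibitor gene NFKBIA by -3.21. The gene that was higher, TSC22D3 (glucocorticoid-induced leucine zipper), averaged 6.91 in the iPSCs and 6.01 in the fibroblasts. The 3 not called were FKBP5 (log2 difference 0.09), GADD45B (0.27) and ZBTB16 (0.31). FKBP5 averaged 3.34 in the iPSCs and 3.25 in the fibroblasts, and ZBTB16 3.47 and 3.16, all below the array medians. Receptor activity was not tested. Members of this list also answer to cytokines and stress, and the call of the fifth lower gene, DUSP1, ended without the KB10460 fibroblasts (adjusted p = 0.26) and without KB10460 colony 2 or 3 or KB10973 colony 2 or 3 (adjusted p = 0.051 to 0.065).

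Among the zinc, copper and iron genes described next, counts are small and stand beside the same shares over all genes, 11.5% lower and 15.2% higher. Several genes that were not called averaged below the array medians in both cell types, where a fall could hardly show. Among them were SLC30A4, SLC30A6, SLC30A10, SLC39A2, SLC39A9, ATP7B and SLC31A1. Of 8 measured zinc importers of the SLC39 family 2 were lower, SLC39A6 with a log2 difference of -2.02 (standard error 0.16, adjusted p = 1.5e-05 from limma) and SLC39A14, which also carries iron, with -1.57 (standard error 0.20, adjusted p = 3.3e-04), and none was higher. Of 7 zinc exporters of the SLC30 family 1 was lower, SLC30A5 of the secretory pathway with -0.77. SLC30A1, the exporter of the plasma membrane and, like the metallothioneins, a target of MTF1, averaged 5.54 ± 0.67 over the iPSC colonies (SD, n = 6), against 6.04 ± 0.19 over both fibroblast arrays (SD, n = 2) and was not called (-0.51, adjusted p = 0.44). Without the KB10973 fibroblasts SLC39A7 was called lower (-0.72), and without KB10460 colony 3 SLC39A4 was called higher (1.15).

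Of 10 copper genes 1 was lower and 1 was higher. CP, the plasma copper protein ceruloplasmin, averaged 3.52 ± 0.22 over the iPSC colonies (SD, n = 6), against 6.61 ± 0.96 over both fibroblast arrays (SD, n = 2), and CCS, the copper chaperone of superoxide dismutase, differed by 0.65 (adjusted p = 0.019 from limma). With the KB10460 fibroblasts left out, the CCS difference was 0.31 (adjusted p = 0.22), and with the KB10973 ones left out it was 0.99. Of 9 iron genes 2 were lower, the heme oxygenase gene HMOX1 (-1.39, adjusted p = 1.0e-04) and the metal transporter gene SLC11A2 (-1.10), and the ferritin receptor gene NCOA4 was higher (0.64). SLC11A2 was not called without the KB10460 fibroblasts (-0.57). NCOA4 was not called without these (0.40, adjusted p = 0.31) or without any 1 of the KB10973 colonies (0.55 to 0.64). With colonies averaged within donor the calls of CCS, SLC11A2 and NCOA4 were lost (adjusted p = 0.19, 0.16 and 0.17 from limma). FTL, the light chain of ferritin, was at 12.2 to 12.6 in the iPSCs and at 12.5 and 12.6 in the KB10973 and KB10460 fibroblasts and was not called (log2 difference -0.19, adjusted p = 0.23).

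**Figure D4:**
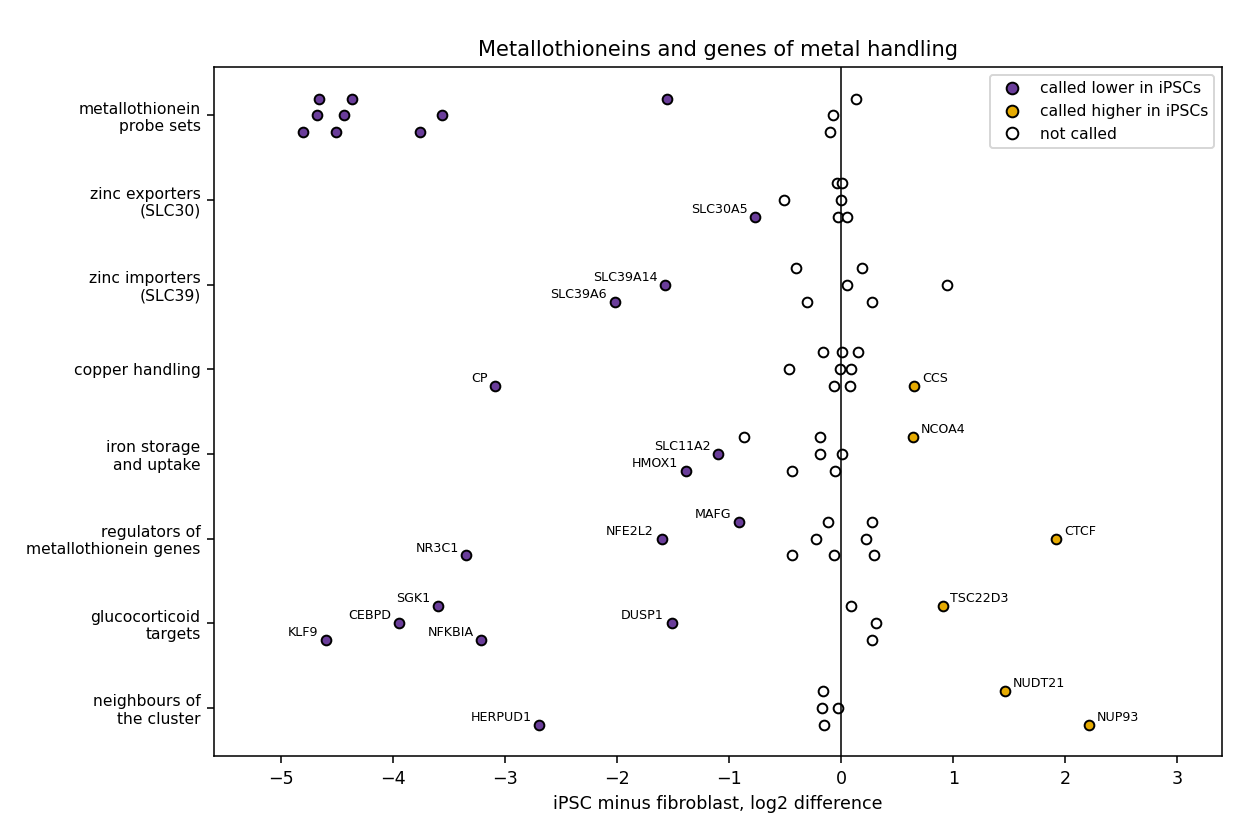
Log2 difference of iPSCs minus fibroblasts (horizontal axis) of the 12 metallothionein probe sets and of the measured genes of 7 lists (rows), filled where called lower or higher and named where called outside the top row. The 9 called metallothionein probe sets reach -4.81, and of the genes in the other rows KLF9 alone lies below -4.

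The genes that flank the metallothionein cluster were measured in 7 cases. Of 7 measured neighbours the iPSCs were higher in 2, lower in 1 and not called in 4, against 15.2% higher and 11.5% lower over all genes, and with 7 genes nothing is read from these counts. NUP93, a nuclear pore gene next to the cluster, averaged 7.91 ± 0.16 over the iPSC colonies (SD, n = 6), against 5.70 ± 0.84 over both fibroblast arrays (SD, n = 2), and NUDT21, a gene of polyadenylation on the other side, was higher by 1.46 (standard error 0.16, adjusted p = 1.3e-04 from limma). HERPUD1, a gene of the stress response of the endoplasmic reticulum, was lower by a log2 difference of -2.70 (standard error 0.33), at 5.89 to 6.24 in the iPSCs, against 7.96 in the KB10973 fibroblasts and 9.54 in the KB10460 fibroblasts.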

How the data were processed

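Total RNA of 8 cultures was labelled with biotin and hybridized to one-colour Affymetrix human arrays. The authors normalized the arrays by RMA in WebArray (version not given in the sources used here) and deposited log2 values for 22277 probe sets, with 0 columns left without a sample. RMA removes a change shared by most transcripts, and values near background understate folds. Precision is limited by the number of arrays.

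From these values, limma 3.58.1 in R 4.3.3 (lmFit, eBayes) compared 6 iPSC with 2 fibroblast arrays, the colonies of the donors, and the change between donors, on all probe sets with adjusted p-values over all of them, two-sided. A call needs a fold over 1.5 and an adjusted p under 0.05. In the annotation, 19070 probe sets have 1 symbol, 1043 have several and 2164 have none. Lists use 1 probe set per gene, that with the highest mean among those with 1 symbol. Named are all members, the 4 called genes of each list with the largest change, MTF1, and the 5 genes most like the members; other genes were picked after their values were seen. Members and lists were chosen with earlier results of these data known. The scripts were tested on simulated data.

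The donor pairs fibroblasts and iPSCs, since both come from the same animal. Across probe sets, donor differences of the 2 cell types correlated at 0.018. Alternatives covered the block, weights, moderation, normalization, filter, thresholds, averaging of colonies and leaving out each array. No protein, promoter or probe sequence was used here.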

Additional observations from a re-analysis of the deposited data

How the results depend on the processing

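In limma the 9 metallothionein probe sets called lower were called in each of 17 alternative settings that refit the data, 153 of 153 values, with MT2A between -4.94 and -4.68 and MT1F 213629_x_at between -1.66 and -1.48 on the log2 scale. With the donor as a fixed or random replicate block 9 were called, and without any 1 array 9. The other 3 were called in none of 48 values. Chosen after seeing the data, a restriction to the 3 member probe sets without the _x_at mark leaves 0 called by limma. Of these, 0 had an unadjusted p under 0.05 from limma. These 3 lay at 2.80 to 4.07 over all arrays, against array medians of 3.74 to 3.82. At such low values a fall could hardly show, so nothing is read from their 0 calls. A fold over 2 kept 9 calls among the members and left 3061 of 4850 over all probe sets. With 1 probe set per gene, 6 of 8 were called. Between the donors' colonies 0 of the 12 were called in 12 settings, the colony number as a replicate block among them. Signs other than the main one were found in 2 of 141 values, both near 0. In 1 of these settings the spread was taken from all 8 arrays. With 1 fibroblast array per donor no spread is added, so that setting repeats the main values and checks nothing. Same-numbered colonies had correlations of -0.055 to 0.058. These values do not show whether such colonies shared a batch or passage, which was not tested. In each donor, colony 3 had the lowest average of the 9 called probe sets (-0.16 in KB10460 and -0.38 in KB10973). Of the 54 measured zinc, copper, iron, regulator and glucocorticoid target genes, 14 were called lower and 4 higher. Over all genes 11.5% were lower and 15.2% higher. The count of 18 calls became 15 to 18 when an iPSC array was left out. With colonies averaged within donor it was 14, while calls over all probe sets went from 4850 to 3397. Leaving out a fibroblast array leaves 1, which is assumed to vary like the colonies.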
